A study of Mus musculus with 9 samples.

Results

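Expression of 10 genes that respond to stress of the endoplasmic reticulum or to amino acid shortage was followed in the aortic arch of mice, a site where atherosclerotic plaque forms early. The genes were chosen by name as members of the unfolded protein response and its ATF4 branch (Hspa5, Ddit3, Atf4, Xbp1, Herpud1, Trib3, Chac1, Asns, Sesn2 and Dnajb9), and all 10 were among the 21989 protein-coding genes of the table and among the 12895 genes tested. RNA sequencing gave 9 libraries in 3 groups of 3. High dose libraries came from ApoE-/- mice, which lack an apolipoprotein that clears remnant lipoproteins, on a high-fat diet with ZCL gavage at 5.12 g/kg/day over 15 weeks (the series title names the plant Ziziphora clinopodioides Lam.). Model libraries came from ApoE-/- mice on the high-fat diet without ZCL, and control libraries from C57BL/6J mice given standard diet. Genotype and diet thus differed together between both ApoE-/- groups and control, and the 2 ApoE-/- groups shared genotype and diet. The labels give neither age nor sex and do not state whether each library is its own animal, so the spread behind each p-value may be partly technical.

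The unfolded protein response is switched on when unfolded proteins build up in the endoplasmic reticulum. The sensors IRE1, PERK and ATF6 then raise chaperones, degradation factors and the transcription factors XBP1 and ATF4. PERK acts by phosphorylating the translation factor eIF2alpha, as does GCN2 when amino acids run short, and the ATF4 protein made under this signal drives genes of amino acid supply, redox balance and, through CHOP, cell death. Macrophages and smooth muscle cells of plaque are known to show this response. ATF4 is regulated mainly at translation and XBP1 by splicing of its messenger RNA, neither of which is seen in a gene-level RNA value.

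Values are FPKM, fragments scaled to gene length and to the size of the library, as the authors deposited them, so levels can be set beside each other between genes. The steps between FPKM values fitted whole fragments in 12892 of the 12895 tested genes, and the fragments so recovered summed to between 11823071 (control 2) and 20527676 (model 1) per library. Libraries of 1 group differed in neighbouring tissue. The 12 heart muscle markers summed to 28.7, 10382 and 17993 FPKM in high dose 1, 2 and 3, to between 48.6 and 90.6 in the model libraries, and to 29740, 7892 and 33.6 in control 1, 2 and 3. The 6 brown fat markers summed to between 1611 and 4821 FPKM in high dose, 1348.5 and 4053 in model, and 1359 and 13693 in control, with the maximum in control 3. Apoe, the deleted gene, lay between 25.4 and 93.7 FPKM in high dose and 18.9 and 33.4 in model, below all control libraries (339.9 to 1006.4). In such bulk tissue, fewer cells of a type and less RNA per cell cannot be told apart.

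The members covered a wide range of levels. Hspa5, which encodes the chaperone BiP, and Atf4 were the most abundant, at 118.6 to 187.8 and 116.9 to 232.4 FPKM over the 9 libraries. Chac1 and Sesn2 were the least abundant, at 0.635 to 7.69 and 1.09 to 7.76 FPKM. The ratio of the highest to the lowest library was 1.58 for Hspa5, 1.99 for Atf4, 2.30 for Xbp1, 2.53 for Ddit3 and Herpud1 and 2.55 for Dnajb9. It reached 7.12 for Sesn2, 8.19 for Asns and 12.1 for both Trib3 and Chac1, so these 4 targets of ATF4 had wider ranges over the libraries than Atf4 itself.

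**Figure D1:**
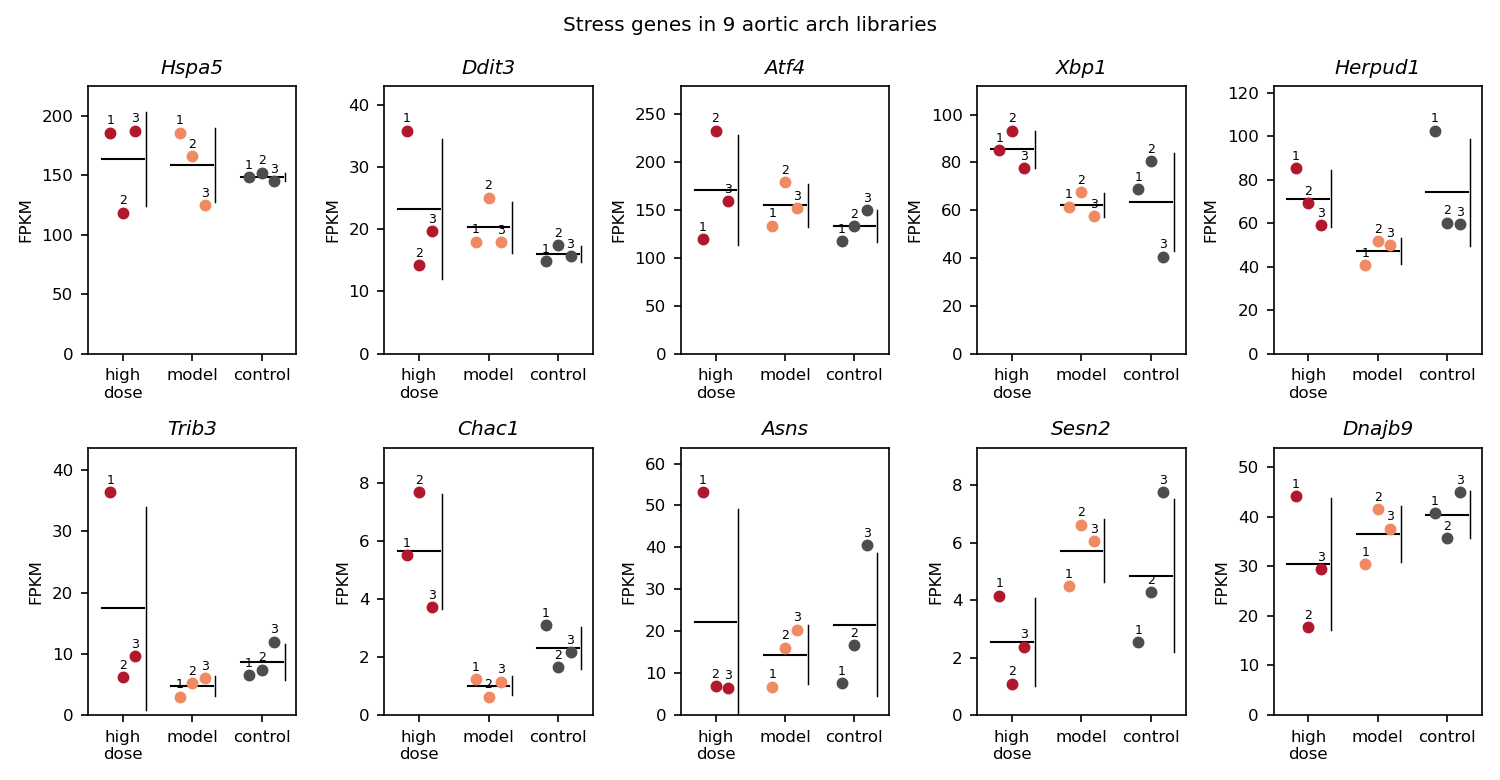
FPKM of each gene (vertical axes, from 0) in the 3 libraries of the high dose, model and control groups; numbers are replicate numbers, horizontal lines are group means and vertical lines the SD, which is cut at 0 for Asns. Chac1 is higher in the 3 high dose libraries (3.73 to 7.69) than in model (0.635 to 1.24) and control (1.66 to 3.09), while Asns and Trib3 are highest in high dose 1.

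High dose set against model addresses ZCL treatment within 1 genotype and diet. Of the 10 genes, Chac1, Trib3, Herpud1 and Xbp1 were higher in every high dose library than in every model library, and Sesn2 was lower. Of all genes tested, 11.7% were higher without overlap in this way and 10.9% lower, and none of the 10 passed the test across all genes. By limma, 0 of 12895 genes passed an adjusted p of 0.05 (0%), while 1729 (13.4%) had an unadjusted p under 0.05, among them 3 of the 10, Chac1, Trib3 and Sesn2. The median log2 difference was 0.10 over the 10 genes and 0.0008 over all genes tested.

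Chac1 encodes an enzyme that breaks down glutathione and is a target of ATF4 and CHOP. It stood at 5.51, 7.69 and 3.73 FPKM in high dose 1, 2 and 3, and at 1.24, 0.635 and 1.15 FPKM in model 1, 2 and 3. The lowest high dose library was 3.02 times the highest model library, and the means were 5.64 ± 1.98 FPKM in high dose and 1.01 ± 0.325 FPKM in model (SD, n = 3 each), a ratio of 5.61. The log2 difference of FPKM + 1 was 1.70 ± 0.295 (SE), with a limma adjusted p = 0.159 over all genes (0.000317 unadjusted), rank 24 by p among 12895 genes. These values rest on 141, 175 and 87 recovered fragments in high dose and on 41, 17 and 27 in model. Counting error alone gave an exact 95% Poisson interval of 2.99 to 4.60 FPKM for high dose 3, the lowest of its group, and of 0.888 to 1.68 FPKM for model 1, the highest of its group, and these intervals do not meet. PCR copies are not separated from molecules, so the intervals cover counting error only.

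Trib3 encodes a pseudokinase that binds AKT and ATF4. Its FPKM was 36.4, 6.22 and 9.65 in high dose 1, 2 and 3, and 3.00, 5.2 and 6.04 in model 1, 2 and 3. High dose 1 stood far above the rest, and the lowest high dose library was only 1.03 times the highest model library. The log2 difference was 1.35 ± 0.562 (SE, limma adjusted p = 0.362), and over the alternatives it ran from 0.65, without high dose 1, to 2.74 (adjusted p = 0.0514) with only the 5 libraries low in heart markers, a setting that leaves high dose 1 as the 1 high dose library.

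Herpud1 encodes a membrane protein of the endoplasmic reticulum that helps to remove misfolded proteins. It stood at 85.1, 69.2 and 59.1 FPKM in high dose 1, 2 and 3, and at 40.5, 51.7 and 49.8 in model 1, 2 and 3. The log2 difference was 0.57 ± 0.271 (limma adjusted p = 0.388), with a 95% interval of -0.047 to 1.19.

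Xbp1 stood at 85.2, 93.3 and 77.7 FPKM in high dose, and at 61.4, 67.5 and 57.6 in model. Its group means differed by a ratio of 1.37 with the libraries of each group close together (CV of 9.15% in high dose and 8.00% in model). The log2 difference was 0.45 ± 0.270 (limma adjusted p = 0.455).

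Sesn2 encodes a leucine sensor that restrains the growth kinase complex mTORC1. Sesn2 stood at 4.15, 1.09 and 2.38 FPKM in high dose, and 4.49, 6.63 and 6.04 in model. The lowest model library was only 1.08 times the highest high dose library. The 95% Poisson intervals of high dose 1 (3.57 to 4.80 FPKM) and model 1 (3.95 to 5.08) met. The ratio of means was 0.444 and the log2 difference -1.01 ± 0.412 (limma adjusted p = 0.358).

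The other 5 genes overlapped between high dose and model. Hspa5 averaged 164.1 ± 39.4 FPKM in high dose and 159.1 ± 31.2 in model, a log2 difference of 0.033 with a 95% interval of -0.57 to 0.64. Atf4 averaged 170.1 ± 57.5 FPKM in high dose and 154.4 ± 22.7 in model (0.096, interval -0.56 to 0.75), and Ddit3, which encodes CHOP, 23.3 ± 11.3 in high dose and 20.3 ± 4.10 in model (0.10, interval -0.62 to 0.83). Ddit3 had its highest and its lowest value of all 9 libraries within high dose, 35.9 FPKM in replicate 1 and 14.2 in replicate 2, and its log2 difference was -0.25 without high dose 1. Dnajb9, which encodes a co-chaperone of BiP, averaged 30.4 ± 13.3 FPKM in high dose and 36.5 ± 5.69 in model (-0.34, interval -1.05 to 0.38). Asns, the asparagine synthetase gene, had the widest interval, -1.87 to 1.99. High dose held 53.2 FPKM of Asns in replicate 1 but 6.93 and 6.49 in the others, and its log2 difference was -0.88 without high dose 1. The fit pools the spread of all 3 groups, and Asns also varied within model (CV of 48.5%) and control (78.8%). These intervals leave room for differences in either direction.

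**Figure D2:**
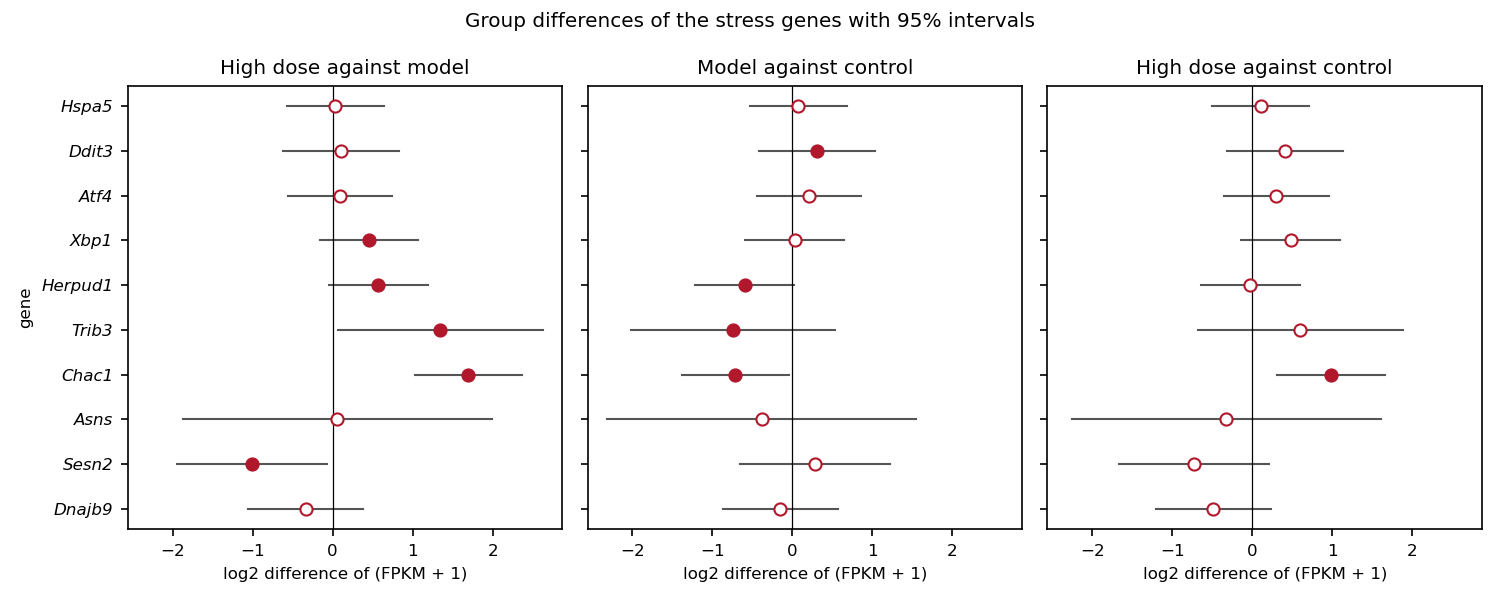
Log2 difference of FPKM + 1 for each gene in the 3 comparisons (first group minus second), with the 95% interval of the limma fit; filled points mark genes whose libraries do not overlap between the groups. In high dose against model Chac1 stands farthest from 0, at 1.70, and the intervals of all genes but Chac1, Trib3 and Sesn2 include 0.

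The promoters of Herpud1, Trib3 and Chac1 are printed since all 3 genes stood without overlap in both comparisons that involve the model group, and those of Hspa5 and Asns since these genes carry the best known elements and showed no such pattern. Each is 300 bases from RefSeq on GRCm38.p6 around the annotated start, 5′ to 3′ on the strand of the gene. Capitals mark the fixed letters of 3 elements, searched on both strands: the endoplasmic reticulum stress element (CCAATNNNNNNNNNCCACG), its second form (ATTGGNCCACG) and the ATF4 and C/EBP response element (TGATGNAA).
Herpud1 (chr8:94386179-94386478, plus strand): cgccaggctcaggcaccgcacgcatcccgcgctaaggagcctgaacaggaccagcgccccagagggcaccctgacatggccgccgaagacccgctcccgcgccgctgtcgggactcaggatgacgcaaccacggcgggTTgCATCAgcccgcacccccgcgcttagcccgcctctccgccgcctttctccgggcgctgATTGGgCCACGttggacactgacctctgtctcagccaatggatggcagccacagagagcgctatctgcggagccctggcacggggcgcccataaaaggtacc
Trib3 (chr2:152344011-152344310, minus strand): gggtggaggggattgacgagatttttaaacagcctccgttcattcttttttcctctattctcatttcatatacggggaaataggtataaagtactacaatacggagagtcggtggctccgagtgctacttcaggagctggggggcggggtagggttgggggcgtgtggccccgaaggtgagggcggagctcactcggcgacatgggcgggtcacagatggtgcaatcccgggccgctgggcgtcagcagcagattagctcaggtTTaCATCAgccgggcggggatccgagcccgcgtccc
Chac1 (chr2:119350992-119351291, plus strand): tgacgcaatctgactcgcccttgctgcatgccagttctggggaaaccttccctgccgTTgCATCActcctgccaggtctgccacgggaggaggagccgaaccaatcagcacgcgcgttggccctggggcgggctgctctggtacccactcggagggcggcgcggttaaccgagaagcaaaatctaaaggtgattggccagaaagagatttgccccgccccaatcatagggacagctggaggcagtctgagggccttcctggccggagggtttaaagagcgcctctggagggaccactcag
Hspa5 (chr2:34771840-34772139, plus strand): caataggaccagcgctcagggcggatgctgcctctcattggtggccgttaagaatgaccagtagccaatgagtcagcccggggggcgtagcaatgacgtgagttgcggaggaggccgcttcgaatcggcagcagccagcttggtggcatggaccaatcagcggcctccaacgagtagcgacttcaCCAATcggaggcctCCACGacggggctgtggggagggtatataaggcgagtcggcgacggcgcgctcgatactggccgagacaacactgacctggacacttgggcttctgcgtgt
Asns (chr6:7693160-7693459, minus strand): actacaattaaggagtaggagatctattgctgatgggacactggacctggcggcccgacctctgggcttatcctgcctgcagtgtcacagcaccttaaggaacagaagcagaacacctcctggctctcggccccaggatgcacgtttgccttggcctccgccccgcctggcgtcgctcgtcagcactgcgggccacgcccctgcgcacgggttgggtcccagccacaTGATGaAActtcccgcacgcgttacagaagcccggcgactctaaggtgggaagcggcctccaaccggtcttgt

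Herpud1 held the second stress element at 52 to 42 bases before its start and the ATF4 element at 112 to 105 bases before it. Trib3 held the ATF4 element at positions 14 to 21 after its start, Chac1 at 193 to 186 bases before and Asns at 23 to 16 bases before, while Hspa5 held the first stress element at 65 to 47 bases before. Over 32851 promoters of the same length, 0.119% held the first element, 0.0365% the second and 3.97% the ATF4 element. The 10 genes were chosen as members of these pathways, so the shares are background and no test of them. The XBP1 site TGACGTGG, also searched, was in 0.676% of all promoters and in none of the 10. The windows of Ddit3, Atf4, Xbp1, Sesn2 and Dnajb9 held none of the 4 motifs, which says only that these letters are not in those 300 bases. Asns and Hspa5 carried such elements and overlapped between high dose and model.

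Model set against control addresses the joint difference in genotype and diet. Chac1, Trib3 and Herpud1 were lower in every model library than in every control library, and Ddit3 was higher. Of all genes tested, 9.06% were lower without overlap and 6.91% higher. By limma 0 of 12895 genes passed (0%), with 821 (6.37%) at an unadjusted p under 0.05, among them 1 of the 10, Chac1. The median log2 difference was -0.061 over the 10 genes and -0.010 over all genes tested. This comparison shares the model libraries with that of high dose and model, so low values in model enter both.

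Chac1 had 1.24, 0.635 and 1.15 FPKM in model 1, 2 and 3, and 3.09, 1.66 and 2.16 FPKM in control 1, 2 and 3. The log2 difference was -0.71 ± 0.295 (SE, limma adjusted p = 0.749). Trib3 had 3.00, 5.2 and 6.04 FPKM in model, and 6.55, 7.38 and 12 FPKM in control (-0.74 ± 0.562, limma adjusted p = 0.841). The gap was narrow, as the lowest control library was 1.09 times the highest model library.

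Herpud1 had 40.5, 51.7 and 49.8 FPKM in model, and 102.5, 60.1 and 59.5 FPKM in control (-0.60 ± 0.271, limma adjusted p = 0.761). Control 1 stood apart from the other control libraries, and without it the log2 difference was -0.34. Ddit3 had 18, 25.1 and 17.9 FPKM in model, and 14.9, 17.5 and 15.7 FPKM in control. Its groups were separated by a ratio of only 1.03, and the log2 difference was 0.31 ± 0.318 (limma adjusted p = 0.892). The 95% Poisson intervals of model 3 (16.6 to 19.3 FPKM) and control 2 (16.0 to 19.0) met. The exons of Ddit3 (chromosome 10, 127290774 to 127296288 on GRCm38, plus strand) overlap by 105 exonic bases (6.13%) a second protein-coding gene model of the same name and strand, whose reads could not be told apart by strand. They also overlap Mars, the methionyl-tRNA synthetase gene on the other strand, by 68 exonic bases, 3.97% of those of Ddit3. The strand setting of the counting is not given in the sources used here, so reads of the Mars overlap could not be assigned to either gene.

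The other 6 genes overlapped between model and control. Mean Hspa5 was 159.1 ± 31.2 FPKM in model against 148.8 ± 3.58 in control (log2 difference 0.077, 95% interval -0.53 to 0.68), and Atf4 154.4 ± 22.7 in model and 133.2 ± 16.4 in control (0.21, interval -0.44 to 0.86). Control libraries agreed closely on Hspa5, with a CV of 2.41%. Mean Xbp1 was 62.1 ± 4.97 FPKM in model against 63.3 ± 20.6 in control (0.028, interval -0.59 to 0.64), and control 3, at 40.5 FPKM, was the lowest of all libraries. Mean Sesn2 was 5.72 ± 1.11 FPKM in model against 4.85 ± 2.66 in control (0.29), and mean Dnajb9 36.5 ± 5.69 in model and 40.5 ± 4.64 in control (-0.15). Asns had 6.74, 16.1 and 20.4 FPKM in model 1, 2 and 3, against 7.57, 16.7 and 40.5 in control 1, 2 and 3, and the log2 difference was -0.38 with control 3 and 0.20 without it. It was -1.74 ± 0.456 with heart markers as a covariate (limma adjusted p = 0.316) and -1.55 with the 5 libraries low in heart markers.

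High dose set against control showed 1 gene without overlap. Chac1 had 5.51, 7.69 and 3.73 FPKM in high dose, and 3.09, 1.66 and 2.16 in control, a ratio of means of 2.45. Its log2 difference was 0.99 ± 0.295 (limma adjusted p = 0.832), and the lowest high dose library was 1.21 times the highest control library. Of all genes tested 3.66% were higher without overlap, 5.02% lower and 8.68% either, against 1, 0 and 1 of the 10. By limma 0 of 12895 genes passed (0%) and 701 (5.44%) had an unadjusted p under 0.05, with Chac1 the 1 among the 10. Herpud1 averaged 71.1 ± 13.1 FPKM in high dose and 74.0 ± 24.7 in control (log2 difference -0.024, 95% interval -0.64 to 0.59). Trib3 averaged 17.4 ± 16.5 FPKM in high dose and 8.63 ± 2.92 in control (0.60, interval -0.68 to 1.88; -0.095 without high dose 1), and Sesn2 2.54 ± 1.54 in high dose and 4.85 ± 2.66 in control (-0.72, interval -1.66 to 0.22).

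Group means of Chac1 were thus ordered high dose, control, model, with no overlap between the libraries of neighbours in that order. Counting error was not smaller than these gaps: the 95% Poisson interval of high dose 3 (2.99 to 4.60 FPKM) met that of control 1 (2.45 to 3.86), and that of model 1 (0.888 to 1.68) met that of control 2 (1.13 to 2.36). For Trib3 and Herpud1 the model group was lowest and did not overlap with its neighbour, while high dose and control overlapped. Xbp1 had its highest mean in high dose, which overlapped with control, and model and control, at 62.1 and 63.3 FPKM, did not differ beyond their spread. Sesn2 had its lowest mean in high dose, and control overlapped with both ApoE-/- groups.

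Single libraries set several of these values. High dose 1 had the highest FPKM of all 9 libraries for Asns (53.2), Trib3 (36.4) and Ddit3 (35.9). Control 3 came second for Asns (40.5) and Trib3 (12), but its Ddit3 stood at 15.7 FPKM. High dose 2 had the highest FPKM for Atf4 (232.4), Xbp1 (93.3) and Chac1 (7.69). It had the lowest for Hspa5 (118.6), Ddit3 (14.2), Sesn2 (1.09) and Dnajb9 (17.7). Its airway and skeletal muscle marker sums, 27108 and 9002 FPKM, were the highest of all libraries. The part of these 2 tissues in its values was not tested beyond the setting that leaves this library out. The 8 markers of adrenal medulla, paraganglia and nerve summed to 2267, 170.9 and 9.99 FPKM in high dose 1, 2 and 3, to 3.07, 0.489 and 3.25 in model 1, 2 and 3, and to 68.0, 551.5 and 127.9 in control 1, 2 and 3. None of these 8 markers reached 1 FPKM in a model library, whereas 6 to 8 did in each high dose library and 7 or 8 in each control library, so this list moved with the same groups as Chac1, Herpud1 and Trib3. High dose 1 and control 3 were also the libraries with the highest brown fat sums, at 4821 and 13693 FPKM, and they were low in heart muscle markers. In high dose 1 the largest part of this sum was Ucp1 (2280.5 FPKM, against 307.9 to 1145.8 in model). Elovl3 (278.6, against 11.2 to 46.9) and Ppargc1a (2.86, against 0.657 to 2.46) were also above every model library. Cox8b (1031.4) and Dio2 (11.9) were lower there than in model 2 (1642.0 and 22.7) and model 3 (1446.0 and 24.8). Cidea (1215.7) was lower than in model 3 (1442.8). The part of these tissues in the values of Chac1, Trib3, Herpud1, Asns and Ddit3 was not tested beyond the settings that leave libraries out. The 8 macrophage markers summed to 493.4, 602.9 and 2347 FPKM in high dose, 6187, 3310 and 1214.5 in model, and 269.6, 646.2 and 170.7 in control, and all 8 were higher without overlap in model than in control, as Ddit3 was. The part of macrophages in that difference was not tested. Plasma cells, which express much Xbp1 and Herpud1, had marker sums of 26.4 to 72.9 FPKM in high dose, 27.8 to 41.3 in model and 12 to 71.9 in control. Sdc1 made up most of the sum in model 1 and 3 (37.0 and 24.0 FPKM), but 9.62 of 27.8 FPKM in model 2. In high dose 3 it made up 22.9 of 26.4 FPKM. Jchain, the joining chain of secreted antibodies, had 16.0, 38.1 and 0.672 FPKM in high dose and 1.24, 6.52 and 1.36 in model. In control it had 4.15, 39.8 and 5.57 FPKM. Its mean, like that of Herpud1, was lowest in model, as was that of Mzb1 (1.51 FPKM, against 4.93 in high dose and 4.41 in control). The other markers of the list, Sdc1, Irf4, Prdm1 and Tnfrsf17, had their highest mean in model. For Irf4 it was 5.61 FPKM, against 2.38 in high dose and 4.88 in control. The part of plasma cells in the values of Herpud1 and Xbp1 was not tested.

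**Figure D3:**
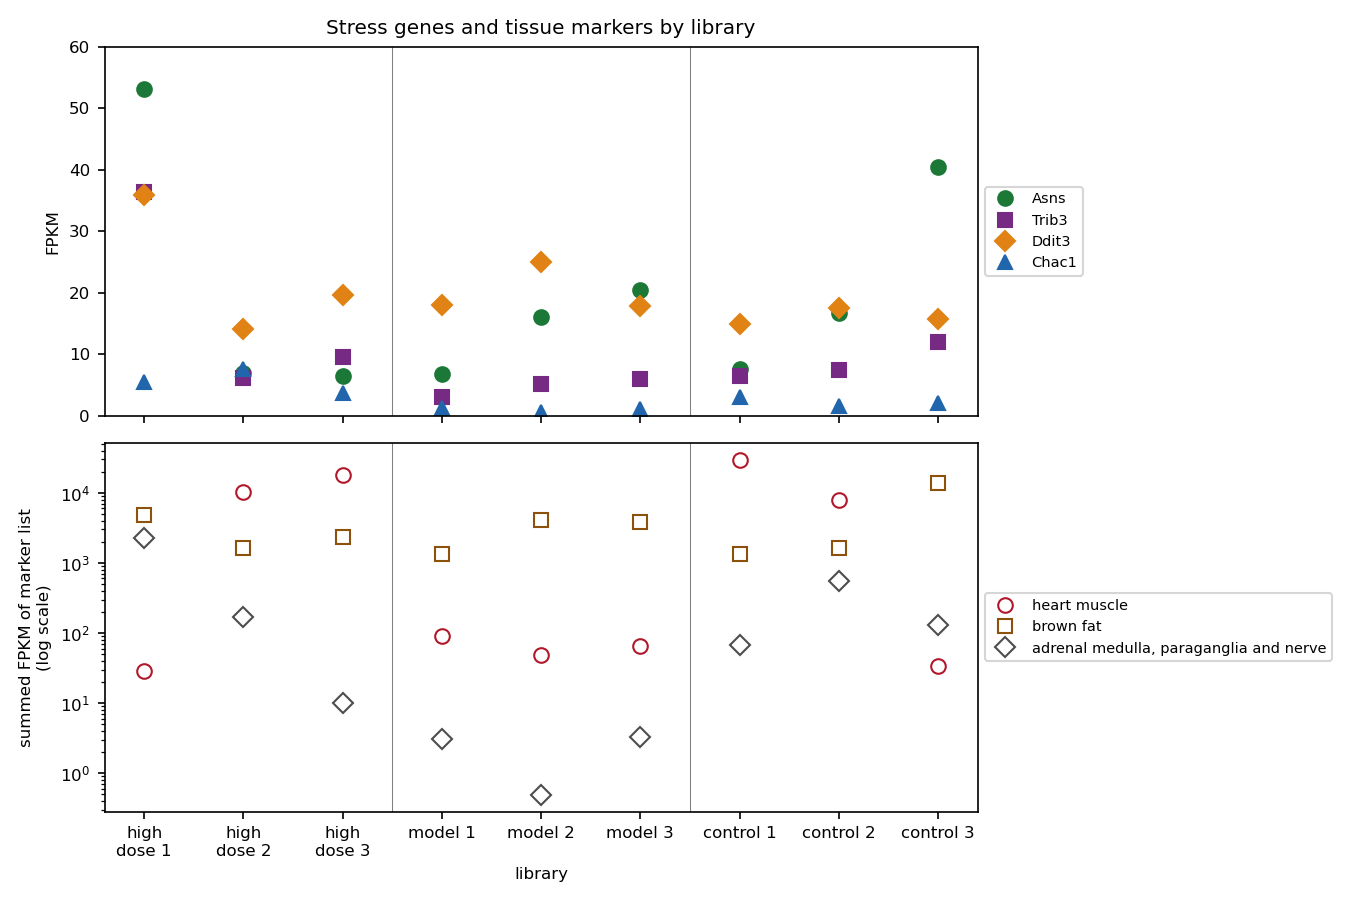
Upper panel, FPKM of 4 genes by library; lower panel, summed FPKM of 3 marker lists on a log scale, in the same library order with high dose left, then model, then control. Asns and Trib3 are highest in high dose 1 and next highest in control 3, the 2 libraries with the highest brown fat sums, and the adrenal and nerve list is lowest in the model libraries.

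Among 89 further tested genes of the same pathways, of 96 names listed, none passed over all genes in any comparison by limma (0). At an unadjusted limma p under 0.05 there were 9 in high dose against model, 6 in model against control and 3 in high dose against control. The shares over all genes tested were 13.4%, 6.37% and 5.44%, in the same order. The 30 tested genes of amino acid synthesis, transport and tRNA charging were mostly higher in high dose than in model (24 of 30, median log2 difference 0.33). Of these, 7 were higher without overlap, against 11.7% of all genes, namely Cbs, Eprs, Slc7a5, Psat1, Slc3a2, Aars and Yars, and 0 were lower. Cbs, which encodes cystathionine beta-synthase of cysteine synthesis, had 3.32, 5.45 and 2.40 FPKM in high dose, and 0.964, 0.426 and 0.775 FPKM in model (log2 difference 1.42 ± 0.367, limma adjusted p = 0.24). Eprs, the glutamyl-prolyl-tRNA synthetase gene, had 21.2, 17.1 and 20.2 FPKM in high dose, and 11.6, 13.3 and 12.7 in model (0.60 ± 0.173, limma adjusted p = 0.265). In model against control the same list had 20 of 30 genes lower (median -0.29), and 5 were lower without overlap, against 9.06% of all genes. They included Slc1a5, a glutamine transporter gene, with 35.8, 79.4 and 82.7 FPKM in model, and 88.7, 198.0 and 210.3 in control (-1.31 ± 0.474, limma adjusted p = 0.713), and the leucyl-tRNA synthetase gene Lars, at -0.49 ± 0.215. Both comparisons use the model libraries. Some tissue marker lists had medians of the same signs. In high dose against model these were 4.43 for heart muscle, 4.0 for adrenal and nerve and 2.75 for airway markers. In model against control they were -4.40, -3.83 and -2.11. Airway sums were high only in high dose 2 (27108 FPKM) and control 2 (9199 FPKM), and lay between 11.4 and 89.8 FPKM in the other libraries. No airway marker stood without overlap in either comparison. Macrophage, fibroblast, red blood cell, smooth muscle, endothelium and white fat markers had medians of the opposite signs. The part of these tissues in the amino acid list was not tested.

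Chaperones had list medians of the opposite sign in both comparisons. Of 16 chaperones and folding enzymes, 5 were higher and 11 lower in high dose than in model (median log2 difference -0.085), with 0 higher and 1 lower without overlap, against 11.7% and 10.9% of all genes. In model against control 12 were higher (median 0.25), 3 of them without overlap, against 6.91% of all genes. Marker lists of other cells moved the same way. Median log2 differences in high dose against model were -1.53 for macrophage, -1.53 for fibroblast and -2.92 for red blood cell markers, and in model against control 2.68, 1.67 and 1.63. Of the 5 red blood cell markers, 4 were lower without overlap in high dose than in model and 5 higher in model than in control. The part of these cells in the chaperone values was not tested. Of 14 degradation and translocation genes, 2 (14.3%) were lower without overlap in high dose than in model, near the 10.9% over all genes. In model against control 11 of these 14 were higher (median 0.20). Of them, 3 (21.4% of the list) were higher without overlap, against 6.91% of all genes. The part of other cells in these values was not tested either. Edem1, which takes misfolded glycoproteins to degradation, had 9.17, 5.82 and 11.1 FPKM in high dose, 23.4, 17.0 and 16.0 in model, and 6.30, 11 and 10.8 in control. Its log2 difference was -1.05 ± 0.299 in high dose against model (limma adjusted p = 0.259) and 0.95 ± 0.299 in model against control (limma adjusted p = 0.708). Herpud1 and Edem1, both of the degradation arm, thus had opposite signs in both comparisons. Vimp, also a degradation factor, was higher without overlap in high dose than in control (0.38 ± 0.208, limma adjusted p = 0.8875). In that comparison 3 of the 89 further genes were higher without overlap, against 3.66% of all genes.

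Among 15 tested ATF4 partners and signalling targets, 2 (13.3%) were higher and 3 (20.0%) lower without overlap in high dose than in model, against 11.7% higher and 10.9% lower over all genes. Ddit4, which encodes an inhibitor of mTORC1 and is also known as a target of glucocorticoids, had 85.6, 139.2 and 80.3 FPKM in high dose, 15.8, 21.2 and 19.0 in model, and 26.3, 57.5 and 44.4 in control. Its groups did not overlap in any of the 3 comparisons, with a log2 difference of 2.35 ± 0.330 in high dose against model (limma adjusted p = 0.141), -1.09 ± 0.330 in model against control (0.688) and 1.26 ± 0.330 in high dose against control (0.802). Tnfrsf10b, the TRAIL death receptor gene and a target of CHOP in human cells, had 6.11, 1.93 and 3.92 FPKM in high dose, 6.75, 11.2 and 10.6 in model, and 3.09, 3.73 and 3.54 in control. The log2 difference was -1.14 ± 0.335 in high dose against model and 1.21 ± 0.335 in model against control, so it stood opposite to Chac1. Of the 14 tested sensors, kinases and phosphatases, 1 was higher and 3 were lower without overlap in high dose than in model. Ppp1r15b, the constant subunit of the eIF2alpha phosphatase, had 20.0, 11.8 and 15.8 FPKM in high dose, and 27.0, 46.2 and 41.4 in model (-1.21 ± 0.443, limma adjusted p = 0.336). The shares over all genes were 11.7% higher and 10.9% lower. In model against control 8 of these 14 had higher and 6 lower values, and 3 were higher without overlap, against 6.91% of all genes, among them Ern1, the gene of the sensor IRE1, at 0.68 ± 0.284. Eif2ak2, the gene of the kinase PKR, was higher without overlap in high dose than in control, at 0.72 ± 0.264 (limma adjusted p = 0.849). Of all genes, 3.66% were higher in this way.

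**Figure D4:**
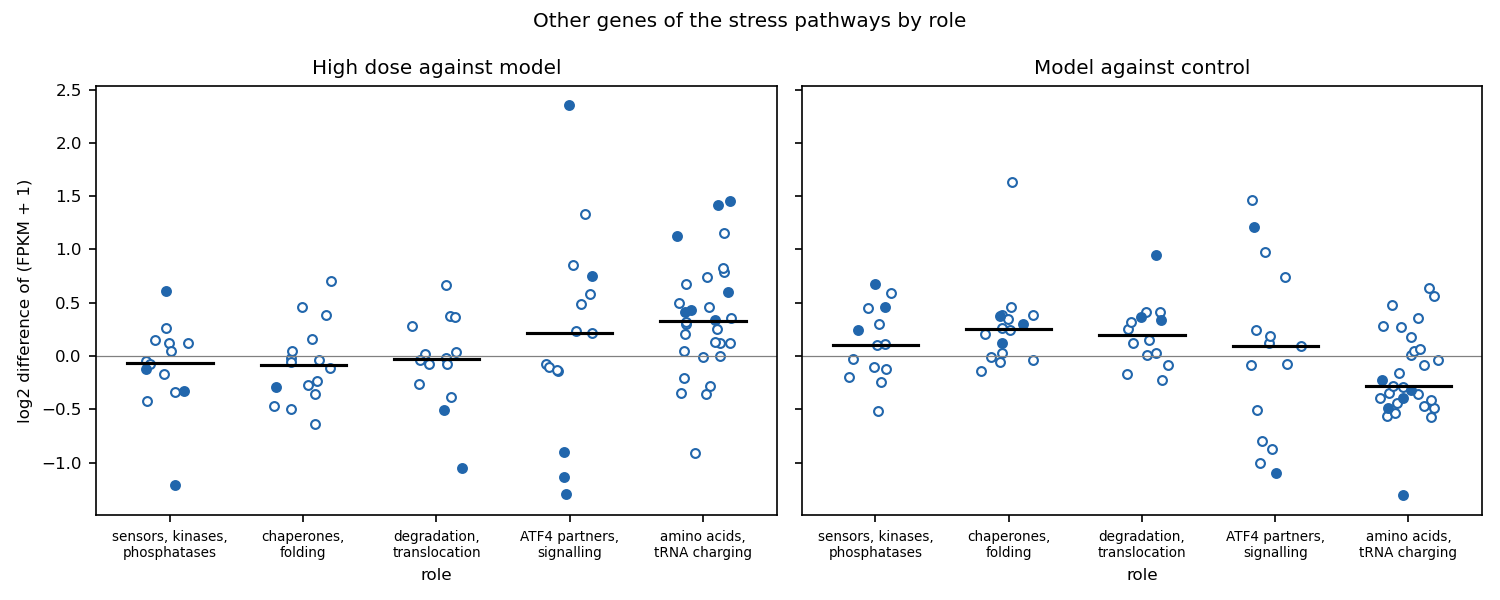
Log2 difference of FPKM + 1 for 89 further pathway genes by role, in high dose against model (left) and model against control (right); filled points do not overlap between groups and black lines are list medians. The amino acid and tRNA charging list has a median of 0.33 on the left and -0.29 on the right, while the chaperone list has -0.085 and 0.25.

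Across the 9 libraries, the tested genes whose log2(FPKM + 1) was most like that of Hspa5 were Tmx1 (Pearson r = 0.933), Stam2 (0.917) and Slc36a4 (0.894). Tmx1 encodes a thiol oxidoreductase of the endoplasmic reticulum membrane, and ran from 25 FPKM in high dose 2 to 46.9 in model 1. The genes most like Atf4 were 2810428I15Rik (0.941), Lamtor2 (0.924) and Npepl1 (0.915), none of them a listed ATF4 target. These are the highest values among all other tested genes over 9 libraries that differ in depth and tissue makeup, and are given as a description.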

How the data were processed

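RNA of the aortic arch was sequenced from NEBNext Ultra messenger RNA libraries, per the labels' protocols. The authors deposited FPKM values per gene. The submitters' processing notes name the genome builds GRCm38.p5 and mm10, and no aligner, counter or strand setting was found in the labels or headers. Genes with at least 1 FPKM in at least 3 libraries were tested on log2(FPKM + 1) with limma 3.58.1 in R 4.3.3. The 9 libraries entered a single fit with group means and a trended empirical Bayes step; tests were two-sided, with Benjamini-Hochberg adjustment at 0.05. This scale understates the change of low genes. Whole fragments were recovered as the smallest whole numbers whose ratios between libraries matched the FPKM within a relative 1e-07, in 99.977% of tested genes; a common factor would not be seen. The fit was tested on simulated data.

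The members and lists were chosen with earlier results of these data known. Besides the 10 genes and Apoe, a rule named the 3 further pathway genes of smallest p without overlap, per direction and comparison. It also named the 3 genes most correlated with Hspa5 and with Atf4. Marker genes of brown fat and plasma cells are given with values outside this rule. Other genes of short counts were named after their values were seen. Gene positions are from GENCODE M21 on GRCm38, and promoters matched all 10 symbols. Alternatives were another pseudocount, filters, scalings, weights, a replicate block, a heart marker covariate and left-out libraries. Atorvastatin and lower ZCL dose groups were not analysed here, and all libraries carry the batch label 1. Figures were drawn with matplotlib 3.10.9.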

Additional observations from a re-analysis of the deposited data

How the results depend on the processing

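None of the 10 genes passed the limma test in any comparison under any alternative run, and Chac1 kept its direction in all 3 comparisons; in high dose against model its log2 difference ran from 1.48 to 2.40, with adjusted p from 0.0556 to 0.589. Of the 30 differences, 16 kept their sign under every alternative and 14 turned. Correlations of deviations ran from -0.52 to 0.31 for same-numbered libraries of different groups, and from -0.38 to 0.44 for differently numbered ones. They cannot tell whether replicate numbers pair the libraries, since neighbouring tissue differs by library, and the labels state no design. With a replicate block 0 genes passed in each comparison. Over all genes, 684 passed in model against control with array weights and 77 without high dose 1 and control 3, the libraries highest in brown fat markers; that setting, like those with the 5 libraries low in heart markers and limma-voom on recovered fragments, was chosen after seeing the data. In high dose against model, 6 passed with array weights, 1 with only those groups fitted, 591 with the low-heart libraries and 113 without the brown fat pair, and leaving out single libraries gave 0 to 46 (46 without high dose 3). In high dose against control 229 passed with the low-heart libraries. That setting leaves 1 library in high dose and 1 in control, each assumed to vary like the model libraries, so overlap was not counted there, and it shifted the median of all genes by 0.15 in both comparisons with control. Of the 10 genes, those without overlap numbered 7 in model against control without the brown fat pair and 4 to 7 leaving out single libraries (7 without control 3). Both without the pair and without control 3, 1506 of all 12895 genes were higher without overlap and 3205 lower. In high dose against model those of the 10 numbered 3 with a mean of at least 5 FPKM, a filter that removed Chac1 and Sesn2. Over the 8715 genes that this filter kept, 983 were higher without overlap and 906 lower. In high dose against control those of the 10 numbered 0 with that filter, 2 with median-ratio scaling and 5 without the brown fat pair. Leaving out single libraries gave 1 to 5 (5 without high dose 1, 3 without high dose 2). All genes higher and lower without overlap there were 320 and 433 of 8715 with that filter. Of 12895, they were 623 and 710 with median-ratio scaling and 1694 and 3050 without the pair. Without high dose 1 they were 1247 and 1722, and without high dose 2 888 and 995. Fewer libraries make a lack of overlap more frequent by construction.

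Log2 differences that turned sign were as follows; the cause was not tested. With array weights, Xbp1 stood at -0.064 and Asns at 0.51 in model against control, and Ddit3 at -0.10 and Asns at -0.54 in high dose against model. Without the brown fat pair, Xbp1 stood at -0.26 and Asns at 0.20 in model against control, Hspa5 at -0.072, Ddit3 at -0.25 and Asns at -0.88 in high dose against model, and Hspa5 at -0.013 in high dose against control. With the low-heart libraries, Sesn2 stood at -0.40 in model against control, Atf4 at -0.36 and Dnajb9 at 0.28 in high dose against model, and Atf4 at -0.33, Herpud1 at 0.51 and Asns at 0.39 in high dose against control. Sesn2 stood at -0.28 with the heart covariate in model against control. In high dose against model, Hspa5 and Atf4 stood at -0.10 and -0.074 with quantile normalization, and Hspa5 at -0.0076 with limma-voom. Leaving out single libraries, model against control ranged from -0.045 to 0.24 for Hspa5, -0.26 to 0.23 for Xbp1, -0.93 to 0.20 for Asns and -0.030 to 0.63 for Sesn2. High dose against model ranged from -0.13 to 0.25 for Hspa5, -0.25 to 0.39 for Ddit3, -0.16 to 0.32 for Atf4 and -0.88 to 0.55 for Asns. High dose against control ranged from -0.0022 to 0.33 for Hspa5, -0.16 to 0.23 for Herpud1, -0.095 to 1.09 for Trib3 and -1.26 to 0.26 for Asns.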

Other observations

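Among the 10 genes, 45 pairs were correlated over the 9 libraries on log2(FPKM + 1), and 28 were positive. None had an exact permutation p under 0.05 after Benjamini-Hochberg adjustment over the pairs, and 6 had one before it. The highest Pearson's r was 0.788 for Sesn2 and Dnajb9 (exact permutation p = 0.0118, adjusted 0.243), with Spearman's rho 0.667 (exact permutation p = 0.0589, adjusted 0.379). Without high dose 2 and control 3, the libraries farthest from the median of Sesn2, r was 0.336. Leaving out the farthest libraries narrows the range and can by itself lower r. The lowest r was -0.773 for Chac1 and Sesn2 (exact permutation p = 0.0145, adjusted 0.243), with rho -0.783 (exact permutation p = 0.0172, adjusted 0.258), and -0.728 without high dose 1 and 2. The libraries differ in tissue makeup and fall into 3 groups, so these values are a description.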
